A study of Mus musculus with 6 samples.

Results

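The vascular endothelial growth factor (VEGF) ligands, their receptors and co-receptors, and the VEGF-responsive gene Esm1 were followed in cultured aortic endothelial cells of mice infused with saline or with angiotensin II (AngII). The set was fixed by symbol as 10 genes, the ligands Vegfa, Vegfb, Vegfc and Pgf, the receptors Kdr, Flt1 and Flt4, the co-receptors Nrp1 and Nrp2, and Esm1. Of these, 9 had a row among the 17067 genes of the deposited table and all 9 passed the filter on low counts, which left 12277 genes to test. Vegfc was not analysed here.

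The series compares messenger RNA of the endothelium between a hypertensive model and its control. All animals were C57BL/6 mice labelled wild type, 8 weeks old, and carried osmotic pumps under the skin for 14 days. The 3 saline samples came from mice with 0.9% saline in the pump, and the 3 AngII samples from mice given 1000 ng of AngII per kg of body weight per minute. Pieces of aorta 2 mm long were then laid on Matrigel, and endothelial cells grew out of them after 5 to 7 days. The labels name no AngII in the culture medium, so RNA was taken days after the tissue had left the infused animal. The culture medium of both groups held 20% serum, 25 U/mL heparin and 10 ng/mL of a supplement called endothelial growth factor in the labels, whose identity is not given further. Heparin is known to bind several VEGF ligands, and the medium was the same in both groups. The labels do not say whether samples came from separate mice or pools, so the spread between samples may be technical and the p-values measure that spread alone.

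VEGF ligands are secreted dimers that bind receptor tyrosine kinases on endothelial cells. VEGF-A binds Flt1 and Kdr, and Kdr carries most of its signal for growth, migration and permeability, while Flt1 binds VEGF-A more tightly, signals weakly and also exists as a soluble decoy. VEGF-B and placental growth factor (the product of Pgf) bind Flt1 and not Kdr, and VEGF-C binds Flt4, the receptor best known from lymphatic vessels. Neuropilins hold ligands beside the receptors and also bind semaphorins. Esm1 encodes endocan, a secreted proteoglycan that VEGF-A induces and that marks the tip cells at the front of vessel sprouts.

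Total counts were 21154724 to 23004780 in the saline samples and 22646065 to 25141992 in the AngII samples, and 1 count was worth 0.0400 to 0.0471 CPM. CPM here are counts scaled to a common library size with the trimmed mean of M-values (TMM), the scaling of edgeR. Markers of endothelium were abundant, with Pecam1 at 1846 ± 19.3 CPM in saline and 1919 ± 93.4 CPM in AngII samples (mean ± SD, n = 3), and the 15 endothelial markers in the table summed to 7027 to 7118 CPM in saline and 6541 to 7159 CPM in AngII samples. Of these 15 markers 8 were called lower and 2 higher, with a median log2 fold change of -0.08. Of all tested genes 28.6% were called lower and 29.0% higher, and all marker counts given here stand against these shares. Vwf, also a marker of endothelium, was low at 10.7 ± 0.140 and 8.12 ± 1.36 CPM, and Cldn5 was not analysed here. Defining markers of other cells were near 0, with Acta2 of smooth muscle at 0.181 and 0.111 CPM, Col1a1 of fibroblasts at 0.0616 and 0.113 CPM, Ptprc of leukocytes at 0.0585 and 0.0133 CPM and Prox1 of lymphatic endothelium at 0.0904 and 0.0548 CPM in saline and AngII samples. The summed levels of the marker lists ran from 104.4 to 106.9 CPM in saline and 115.9 to 121.1 CPM in AngII samples for the 13 mural markers, of which Smtn made up most, and from 271.9 to 276.4 and 264.9 to 280.6 CPM for the 10 leukocyte markers, of which Cd68 made up most. They ran from 10.9 to 12.3 and 18.7 to 21.5 CPM for the 9 fibroblast markers and from 4.26 to 5.16 and 2.14 to 2.73 CPM for the 7 mesothelial and adipocyte markers. The mural sum followed Smtn, the 1 marker called higher of 6 tested, while 3 of the 6 were called lower and the median log2 fold change was -1.05. Of the tested markers of the other lists, 3 of 3 fibroblast markers and 1 of 3 leukocyte markers were called higher, and 1 of 2 mesothelial and adipocyte markers was called lower. In such bulk samples, fewer cells of a type and less RNA per cell cannot be told apart.

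Of the 9 genes, 7 rose with AngII and Esm1 fell, by edgeR's quasi-likelihood test with Benjamini-Hochberg adjustment over all tested genes. The 7 that rose out of 9 compare with 29.0% of all tested genes called higher at an adjusted p below 0.05, and the 1 that fell with 28.6% called lower, 57.6% being called in either direction. The members were chosen with earlier results of these data known, so the counts in this paragraph are a description. The rises were largest in the ligand Pgf and in Vegfa, intermediate in the co-receptor Nrp2 and the receptor Flt1, and smaller in Kdr, Vegfb and Flt4. With correction for GC content and gene length, Vegfb (log2 0.43) came above Flt1 (0.34) and Flt4 (0.33) above Kdr (0.27). Nrp1 did not pass. In 8 of the 9 genes the 3 AngII samples did not overlap the 3 saline samples, against 62.7% of all tested genes, and the exception was Nrp1. The median log2 fold change over the 9 genes was 0.28, and over all tested genes it was 0.

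**Figure D1:**
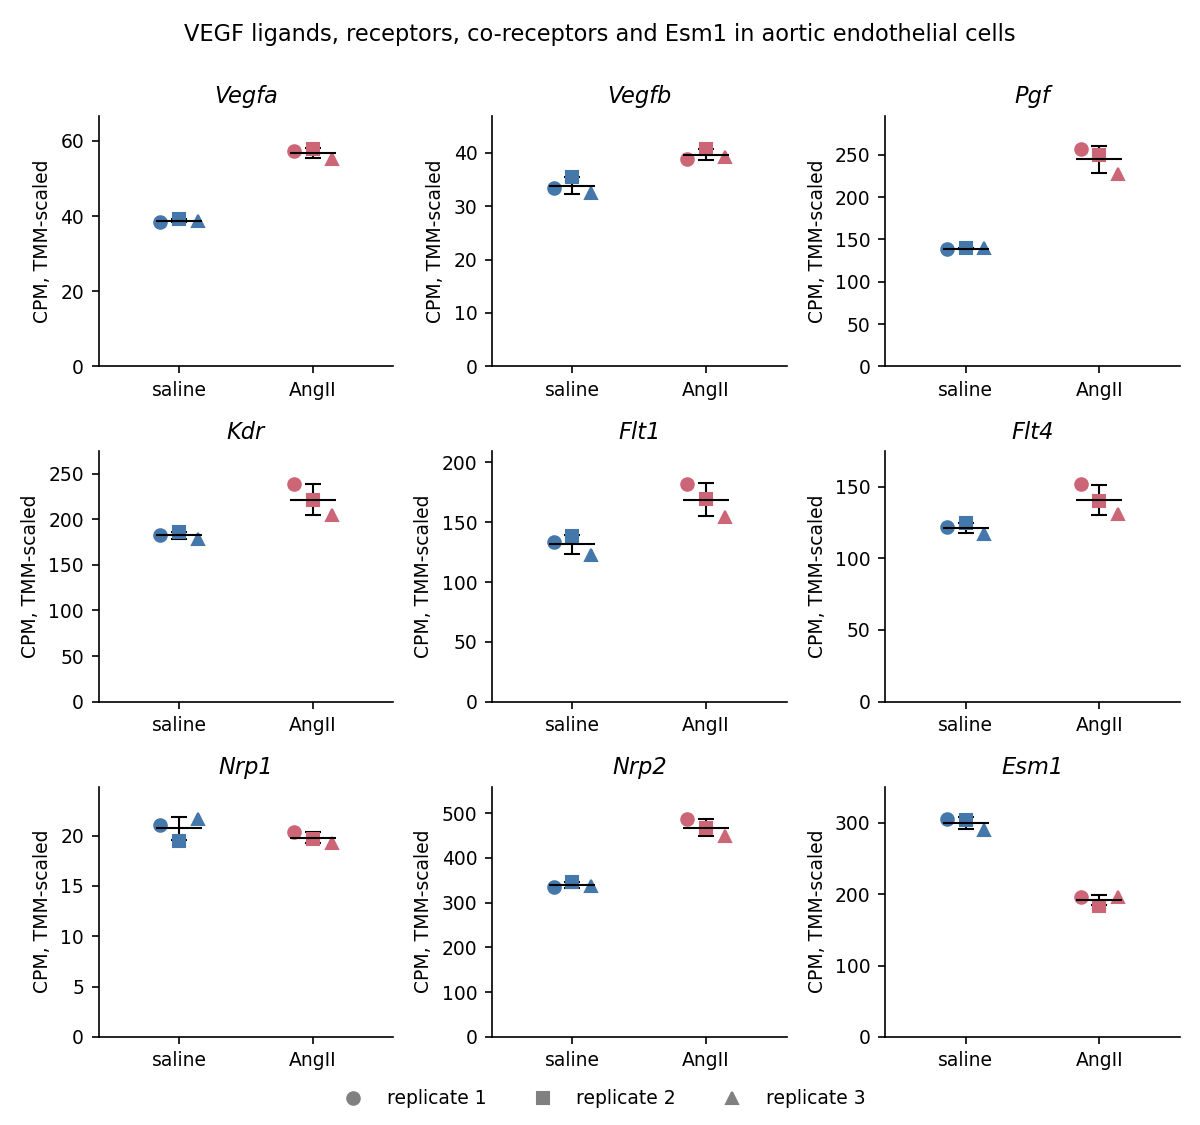
Level of each of the 9 genes in the 6 samples, in TMM-scaled CPM on linear axes that start at 0. Points are samples with a symbol for each replicate number, horizontal bars are group means and whiskers the SD (n = 3). AngII samples lie above all saline samples in 7 panels, below them in the Esm1 panel and among them in the Nrp1 panel.

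Because the ligand genes Pgf and Vegfa rose most, the receptor gene Kdr rose with them and Esm1 fell, the promoter windows of these 4 genes are shown for reference. Each runs from 250 bases before to 50 bases after a RefSeq start (GRCm38.p6) and is the window nearest to the start of the gene in GENCODE M21, 477 bases from it for Pgf and at most 8 bases for the others. All 10 members had at least 1 window. Capitals mark matches, on either strand and with overlaps allowed, to the hypoxia response core ACGTG or GCGTG, the Sp1 box GGGCGG, the element of ATF4 and CHOP TGATGNAAT, the ETS core CCGGAA and the TATA box TATAAA.
Vegfa, chr17:46032328-46032627, minus strand: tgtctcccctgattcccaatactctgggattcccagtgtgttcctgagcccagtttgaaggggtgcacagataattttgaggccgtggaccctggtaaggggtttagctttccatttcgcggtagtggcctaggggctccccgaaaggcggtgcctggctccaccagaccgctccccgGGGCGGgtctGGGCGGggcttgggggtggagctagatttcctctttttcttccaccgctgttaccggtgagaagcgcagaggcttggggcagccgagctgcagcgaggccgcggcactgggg
Pgf, chr12:85177264-85177563, minus strand: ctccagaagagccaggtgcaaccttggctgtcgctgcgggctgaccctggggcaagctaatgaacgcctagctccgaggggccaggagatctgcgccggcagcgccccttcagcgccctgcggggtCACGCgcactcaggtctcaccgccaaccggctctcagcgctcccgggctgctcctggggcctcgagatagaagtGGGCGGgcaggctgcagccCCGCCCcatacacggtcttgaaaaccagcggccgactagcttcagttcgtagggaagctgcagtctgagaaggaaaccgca
Kdr, chr5:75978406-75978705, minus strand: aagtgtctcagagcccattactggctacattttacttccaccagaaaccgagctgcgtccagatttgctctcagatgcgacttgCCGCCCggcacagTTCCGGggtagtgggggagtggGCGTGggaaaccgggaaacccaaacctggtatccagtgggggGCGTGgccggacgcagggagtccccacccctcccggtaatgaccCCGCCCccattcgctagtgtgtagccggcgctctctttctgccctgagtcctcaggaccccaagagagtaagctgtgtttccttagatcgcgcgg
Esm1, chr13:113209409-113209708, plus strand: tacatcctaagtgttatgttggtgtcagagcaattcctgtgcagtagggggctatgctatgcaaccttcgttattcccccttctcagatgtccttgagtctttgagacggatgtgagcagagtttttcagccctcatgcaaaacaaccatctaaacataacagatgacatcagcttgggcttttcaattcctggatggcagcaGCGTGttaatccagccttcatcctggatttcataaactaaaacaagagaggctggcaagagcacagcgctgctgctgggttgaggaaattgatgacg
The Esm1 window had the lowest GC content of the 4, 46.3% against 62.0% for Vegfa, 66.0% for Pgf and 60.7% for Kdr, where the median of all 32851 windows was 52.7%. It held 0 Sp1 boxes, while the windows of Vegfa, Pgf and Kdr held 2 each, and 35.7% of all windows held at least 1. The hypoxia core matched 2 times in the Kdr window, 1 time in those of Pgf and Esm1 and 0 times in that of Vegfa, and 43.8% of all windows held it. The ETS core was present only in the Kdr window among these 4, at 1 match, and in 14.9% of all windows. The element of ATF4 and CHOP, held by 0.965% of all windows, and the TATA box, held by 13.6%, had 0 matches in these 4 windows. Vegfa and Pgf each had a further window, 7206 and 1808 bases from the gene start and not shown. That of Vegfa held 2 hypoxia cores and 1 Sp1 box, and that of Pgf 0 of each. A match of letters is a description of the window and not a site of binding.

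Pgf (ENSMUSG00000004791.7, chromosome 12, 85166635 to 85177790, minus strand, GRCm38) rose more than any other gene of the set. It stood at 138.2, 140.2 and 139.6 CPM in saline replicates 1 to 3 and at 257.3, 249.9 and 227.2 CPM in AngII replicates 1 to 3. Every AngII sample was far above every saline sample, and AngII replicate 3 was the lowest of its group. The level was 1.76 times as high (log2 0.81 ± 0.0397, SE; n = 3 per group, edgeR adjusted p = 5.9e-12). By size of change it ranked 279 among the 3555 genes called higher. The saline samples varied by 0.760% (coefficient of variation) and the AngII samples by 6.41%, where counting alone would give 1.80% and 1.31%.

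Vegfa (ENSMUSG00000023951.17, chromosome 17, 46016993 to 46032369, minus strand), which encodes the ligand that drives most vessel growth, had 38.6, 39.1 and 38.7 CPM in the saline samples and 57.3, 58.0 and 55.2 CPM in the AngII samples. Both groups were tight, with coefficients of variation of 0.797% with saline and 2.50% with AngII. These lie below the 3.41% and 2.72% that counting alone would give. The gap between the groups was many times the counting error as well. The rise was 1.46-fold (log2 0.55 ± 0.0412, SE; edgeR adjusted p = 2.1e-09, n = 3 per group), and it ranked 616 among the genes called higher. The counts are per gene, so the splice forms of VEGF-A, which differ in their binding to heparin, were not separated.

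Vegfb (ENSMUSG00000024962.13, chromosome 19, 6982473 to 6987651, minus strand), a ligand of Flt1 linked to lipid uptake in endothelium, rose least of the 3 ligands. It had 33.4, 35.5 and 32.4 CPM with saline and 38.9, 40.7 and 39.3 CPM with AngII. The lowest AngII sample lay above the highest saline sample. The fold change was 1.17 (log2 0.23 ± 0.0495, SE; edgeR adjusted p = 6.2e-04, n = 3 per group). With correction for GC content and gene length the log2 value was 0.43 (adjusted p = 3.7e-06, and 3.7e-06 to 0.0057 over all alternatives). Vegfd, a further ligand of Flt4 taken from the list of ligand genes after its values were seen, was near the detection limit at 0.880 ± 0.366 CPM with saline and 0.719 ± 0.110 CPM with AngII (adjusted p = 0.45). Summed fibroblast markers were higher in AngII samples, as given above. The 3 tested ones all rose, Col3a1 from 3.43 to 8.27, Pdgfra from 3.50 to 5.55 and Pi16 from 4.29 to 6.13 CPM. Col1a1 and Dcn were near 0 in both groups. The part of fibroblast markers in the ligand changes was not tested.

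Kdr (ENSMUSG00000062960.10, chromosome 5, 75932827 to 75978458, minus strand), the main signalling receptor of VEGF-A, was higher in every AngII sample. Its levels were 183, 186 and 178 CPM with saline and 239, 221 and 205 CPM with AngII. The AngII samples were spread more widely than the saline samples, with coefficients of variation of 7.69% and 2.11%, against 1.38% and 1.58% from counting alone. The rise was 1.21-fold (log2 0.28 ± 0.0430, SE; edgeR adjusted p = 2e-05, n = 3 per group). Flt1 (ENSMUSG00000029648.13, chromosome 5, 147561604 to 147726011, minus strand), the receptor shared by the 3 ligands measured, had 133, 138 and 123 CPM with saline and 182, 170 and 155 CPM with AngII. It rose 1.28-fold (log2 0.36 ± 0.0502, SE; edgeR adjusted p = 6.5e-06, n = 3 per group), with the groups apart. The transcript of the soluble decoy ends within the gene, and its share was not measurable from counts per gene.

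Flt4 (ENSMUSG00000020357.3, chromosome 11, 49609263 to 49652739, plus strand) is the receptor of VEGF-C and VEGF-D. It had 122, 124 and 117 CPM with saline and 152, 140 and 131 CPM with AngII, again with AngII replicate 3 the lowest of its group and just above the saline range. The difference of 1.16-fold (log2 0.22 ± 0.0445, SE; edgeR adjusted p = 4.2e-04, n = 3 per group) was the smallest of the 7 rises in the fit reported here. With correction for GC content and gene length it came to 0.33 on the log2 scale (adjusted p = 5.5e-07, and 4e-09 to 0.0057 over all alternatives), and Kdr was then the smallest. Vegfb was the smallest without AngII replicate 2 (0.209 against 0.220 for Flt4) and without AngII replicate 3 (0.235 against 0.266). The lymphatic markers summed to 103.4 to 105.7 CPM in saline and 186.0 to 204.5 CPM in AngII samples. Of these 8 markers, Lyve1, a hyaluronan receptor, made up most of the sum with 96.8 ± 1.39 and 187 ± 9.72 CPM, while Ccl21a and Mmrn1 were at 0 in the 3 saline samples and Prox1 had 10 counts over all 6 samples. Of the 5 lymphatic markers tested, 3 were called higher and 1 lower, where 29.0% of all tested genes were called higher and 28.6% lower. The part of lymphatic markers in the Flt4 difference was not tested.

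The neuropilin genes differed from each other in level and in response. Nrp2 (ENSMUSG00000025969.15, chromosome 1, 62703285 to 62818695, plus strand), the co-receptor of VEGF-C and of class 3 semaphorins, had 335, 346 and 338 CPM with saline and 487, 468 and 449 CPM with AngII. All AngII samples were well above the saline range, and the rise was 1.38-fold (log2 0.46 ± 0.0333, SE; edgeR adjusted p = 1.2e-09, n = 3 per group). Nrp1 (ENSMUSG00000025810.9, chromosome 8, 128358604 to 128503363, plus strand), the co-receptor of VEGF-A with Kdr, had 21.1, 19.5 and 21.6 CPM with saline and 20.4, 19.7 and 19.3 CPM with AngII, and the groups overlapped. The log2 fold change of -0.07 had a 95% interval of -0.20 to 0.06 (edgeR adjusted p = 0.37, n = 3 per group), so a change within that interval was not excluded. It had 429 to 499 counts per sample. The mean counts of the groups give counting errors of 4.67% with saline and 4.61% with AngII, against 5.45% and 2.75% observed. The annotation places the microRNA gene Mir1903 on the same strand within Nrp1, where they share 80 exonic bases.

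Esm1 (ENSMUSG00000042379.8, chromosome 13, 113209659 to 113218098, plus strand) fell while the ligands and receptors rose. It stood at 305, 305 and 290 CPM with saline and at 196, 184 and 196 CPM with AngII. The highest AngII sample had far less than the lowest saline sample. It was lower by 1.56-fold (log2 -0.64 ± 0.0344, SE; edgeR adjusted p = 1.9e-11, n = 3 per group), and by size it ranked 628 among the 3517 genes called lower. Gzmk lies on the opposite strand across Esm1 in the annotation and shares 0 exonic bases with it.

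**Figure D2:**
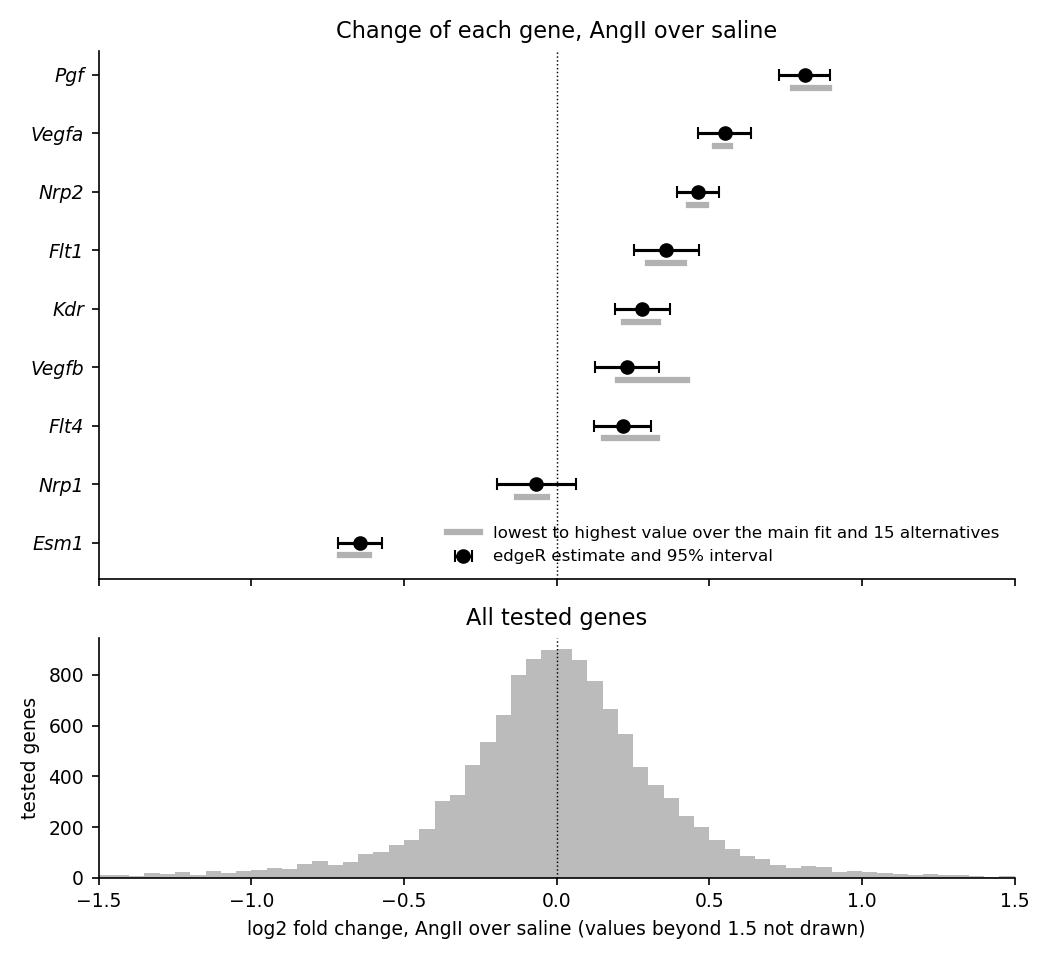
Upper panel, log2 fold change of AngII over saline for each gene, with points for the edgeR estimate, whiskers for its 95% interval and grey bars for the lowest to highest value over the reported and 15 alternative fits. Lower panel, a histogram of the log2 fold changes of the 12277 tested genes on the same axis, centred on 0. Pgf at 0.81 lies farthest to the right, Esm1 at -0.64 to the left of 0, and only the interval of Nrp1 crosses 0.

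The receptor genes had the same order over the AngII samples. This order was not particular to them, since the summed endothelial markers stood at 7159, 6857 and 6541 CPM in AngII replicates 1 to 3. Pecam1 followed it too, at 2012, 1919 and 1825 CPM. AngII replicate 1 had the highest level of its group in Pgf, Kdr, Flt1, Flt4, Nrp1 and Nrp2, and AngII replicate 3 the lowest in these genes and in Vegfa. Without AngII replicate 1 the log2 fold change was 0.22 for Kdr, 0.30 for Flt1 and 0.16 for Flt4, and without AngII replicate 3 it was 0.33, 0.42 and 0.27. The closest pair of profiles within the set was Flt4 and Kdr, at a root mean square distance of 0.0459 log2 units over the 6 samples after centring on the saline mean. Flt1 and Kdr followed at 0.0657, Nrp2 and Vegfa at 0.0668, and the most distant pair was Esm1 and Pgf at 1.03.

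Levels were compared between genes as CPM per kilobase of exon, taking the union of annotated exons. On this scale the saline order was Esm1 (143 ± 4.21), Pgf (48.0 ± 0.365), Nrp2 (28.7 ± 0.476), Vegfb (21.1 ± 0.984), Kdr (20.2 ± 0.426), Flt4 (14.7 ± 0.442), Flt1 (9.74 ± 0.581), Vegfa (9.06 ± 0.0722) and Nrp1 (2.12 ± 0.115; mean ± SD, n = 3). Vegfb overlapped Kdr, and Flt1 overlapped Vegfa, while the other neighbours in the order did not overlap. In AngII samples Esm1 was at 91.5 ± 3.41 and Pgf at 84.3 ± 5.40 CPM per kilobase, and their samples overlapped. Vegfa at 13.3 ± 0.332 and Flt1 at 12.5 ± 1.02 changed places, also with an overlap, and Vegfb and Kdr overlapped again. Taken per length, transcripts of placental growth factor were therefore the most abundant of the 3 ligands in both groups, and those of Nrp2 exceeded those of Nrp1 in all 6 samples. With the length of the longest transcript in place of the exon union, the AngII order began with Pgf (118) and Esm1 (91.5), and Kdr came before Vegfb in both groups. With that length Flt1 and Vegfa did not change places. Flt1 was above Vegfa in saline (19.1 against 11.2) and in AngII samples (24.5 against 16.5).

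Shares within a sample do not depend on the scaling between samples. Of the CPM per kilobase of the 3 ligand genes, Pgf made up 61.5%, 60.7% and 62.2% in saline samples and 70.2%, 68.9% and 67.7% in AngII samples. Vegfb made up 26.9 ± 0.843% with saline and 20.2 ± 0.985% with AngII, and Vegfa 11.6 ± 0.103% and 10.9 ± 0.280% (n = 3 each). The ligand mix thus held more Pgf and less Vegfb in every AngII sample, although the level of Vegfb itself was higher. The receptor mix moved little, with Kdr at 45.2 ± 0.520% and 45.3 ± 0.0398%, Flt1 at 21.8 ± 0.600% and 23.1 ± 0.181%, and Flt4 at 33.0 ± 0.0832% and 31.6 ± 0.144%. The groups overlapped for Kdr and did not for Flt1 and Flt4. These shares were taken without correction for GC content and gene length, after which Flt4 rose more than Kdr (log2 0.33 against 0.27). The lower share of Flt4 therefore depends on that step. Nrp2 made up 93.1 ± 0.442% of the neuropilin transcripts with saline and 95.1 ± 0.0611% with AngII. Summed CPM per kilobase went from 78.1 ± 1.27 to 122 ± 5.81 for the ligands, from 44.6 ± 1.45 to 54.1 ± 4.19 for the receptors and from 30.8 ± 0.379 to 41.5 ± 1.63 for the co-receptors.

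**Figure D3:**
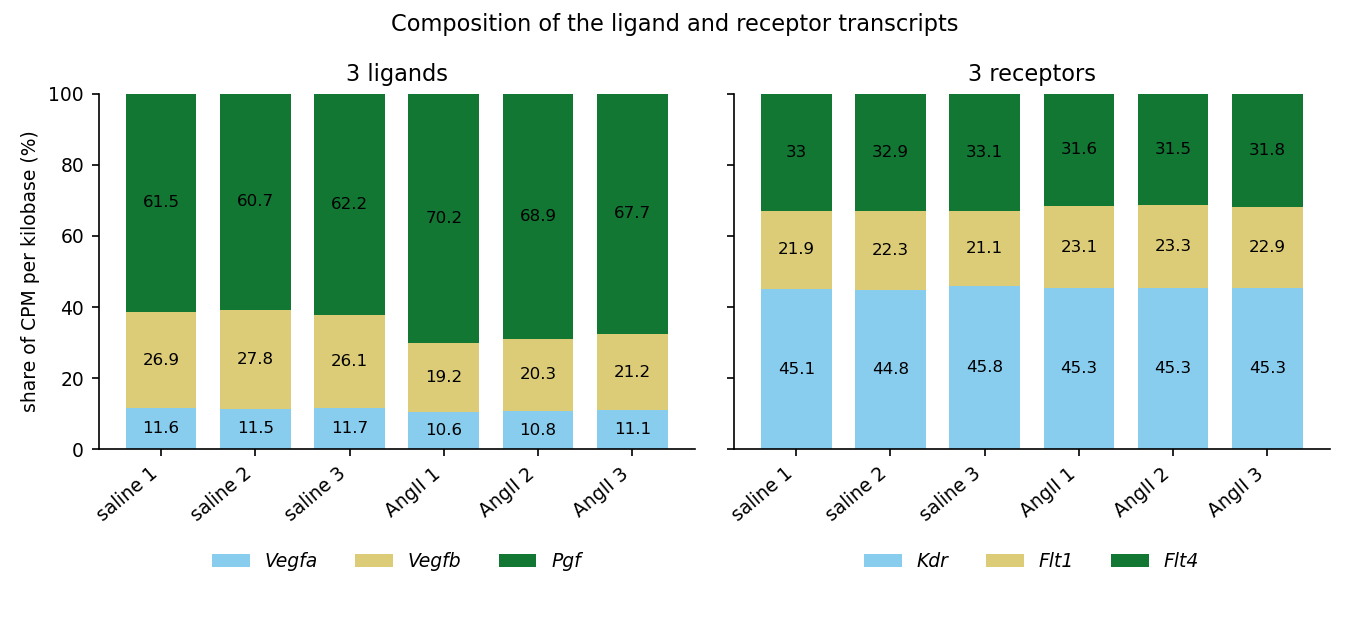
Composition of the ligand transcripts (left) and receptor transcripts (right) in each of the 6 samples, as percent of the summed CPM per kilobase of exon, with each share printed in its bar. The share of Pgf is 60.7% to 62.2% in saline and 67.7% to 70.2% in AngII samples, while the share of Kdr stays between 44.8% and 45.8%.

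Log2 ratios between genes of the same sample were compared by an exact two-sided permutation test, for which 3 samples against 3 cannot give a p below 0.1, so no ratio could pass. Over the 8 ratios computed, 7 reached exact p = 0.1 (adjusted 0.11) with groups that did not overlap. Esm1 relative to Kdr differed most, with log2 values of 2.85, 2.82 and 2.81 in saline and 1.82, 1.84 and 2.05 in AngII samples, a ratio 0.528 times as high. Pgf relative to Flt1 was 1.37 times as high (log2 difference 0.45), Vegfa relative to Vegfb 1.25 times and Vegfa relative to Kdr 1.21 times as high. After correction for GC content and gene length, Vegfa rose by 0.52 and Vegfb by 0.43 on the log2 scale. These values lie closer together than the 0.55 and 0.23 of the reported fit. Nrp1 relative to Nrp2 was 0.694 times and relative to Kdr 0.788 times as high. Kdr relative to Flt1 differed by -0.08, and Vegfa relative to Flt1 by 0.19 with overlapping groups (exact p = 0.2).

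Genes that VEGF-A induces in cultured endothelium were more often higher than lower with AngII. Esm1 was not counted in this list. Of 34 tested genes of this list 23 rose and 6 fell, together 85.3% against 57.6% of all tested genes, and the median log2 fold change was 0.38 against 0 for all. Adamts1, a secreted protease, rose from 83.9 ± 2.63 to 169 ± 3.18 CPM. Rcan1, the calcineurin inhibitor induced through the NFAT pathway, rose from 73.6 ± 5.19 to 192 ± 18.5 CPM (2.61-fold). Egr1, an immediate early transcription factor, rose from 9.69 ± 0.735 to 29.3 ± 1.23 CPM (n = 3; edgeR adjusted p from 4.6e-14 to 1.2e-12 for these 3 genes). Among the 6 that fell were the transcription cofactor gene Lmcd1 (log2 fold change -0.36), E-selectin, Sele (-0.28), and the transcription regulator gene Cited2 (-0.23). Many of these genes also respond to other stimuli. This list and the lists below were drawn up with results of these data known, so their counts are a description.

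Genes of tip cells went both ways. Of 21 tested, 10 rose and 8 fell (85.7% called against 57.6% of all tested genes, median log2 fold change 0.13). Dll4, Apln and Angpt2, which all rose, also stand in the list of VEGF-induced genes, so the counts of these lists share members. Dll4, the Notch ligand that VEGF-A induces in tip cells, rose from 16.7 ± 1.07 to 60.3 ± 9.59 CPM (3.61-fold). Cxcr4, a chemokine receptor of tip cells, rose 2.49-fold from 32.7 ± 1.25 to 81.3 ± 0.783 CPM, and Plxnd1, a semaphorin receptor, rose 1.42-fold. Mcam, an adhesion molecule that binds Kdr as a co-receptor, was 1.90-fold lower at 104 ± 5.30 against 197 ± 1.87 CPM. Robo4, an endothelial guidance receptor, was 1.56-fold and Cd34, a sialomucin, 1.31-fold lower. Apln and Angpt2, chosen after their values were seen, rose by 0.14 and 0.22 on the log2 scale. Esm1 fell, as did Mcam, Robo4 and Cd34, while Dll4, Cxcr4, Apln and Angpt2 rose. With correction for GC content and gene length 12 tip cell genes rose and 5 fell.

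Of 16 tested genes of stalk and resting cells, 8 fell and 4 rose (75% called against 57.6% of all tested genes, of which 28.6% fell and 29.0% rose), with a median of -0.09. Acvrl1, the receptor of BMP9 and BMP10 that restrains sprouting, fell from 87.2 ± 2.25 to 46.1 ± 0.653 CPM (1.89-fold). Klf2, a transcription factor induced by flow, was 1.65-fold and the receptor gene Notch1 1.36-fold lower. Hes1, a Notch target, rose 1.99-fold from 14.7 ± 0.550 to 29.4 ± 5.85 CPM, and Jag1 and Notch4 rose by 0.24 and 0.21 on the log2 scale. The count of genes that fell was 5 with the replicate number as a block together with correction for GC content and gene length.

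**Figure D4:**
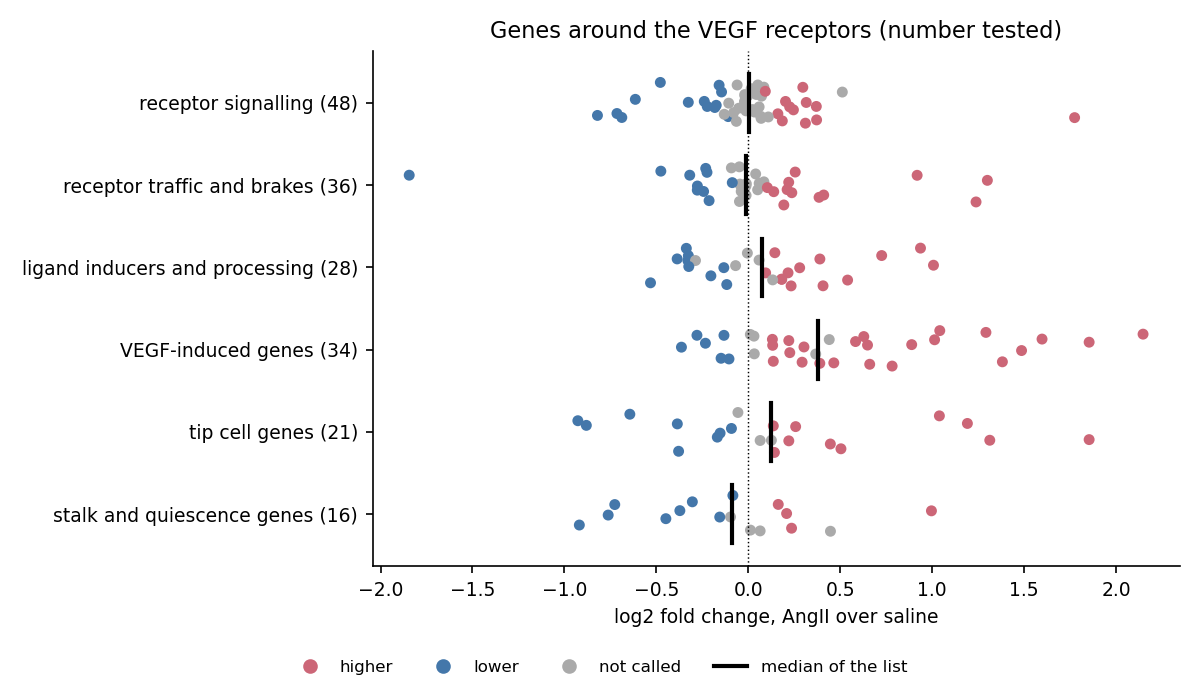
Log2 fold change, AngII over saline, of every tested gene in 6 lists around the VEGF receptors, with the number tested in brackets. Each point is a gene, red where called higher, blue where called lower and grey where not called by edgeR, and black bars are list medians. The bar of the VEGF-induced genes lies at 0.38 and those of the receptor signalling and receptor traffic lists at 0.01 and -0.01.

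Signal carriers below the receptors showed no common direction. Of 48 tested, 12 rose and 13 fell (52.1% called, near the 57.6% of all tested genes, median 0.01). Prkca, a protein kinase C that VEGF-A activates, rose 1.29-fold, and Ppp3cb, a catalytic subunit of calcineurin, rose 1.24-fold. Hspb1, a small heat shock protein phosphorylated downstream of Kdr, was 1.61-fold, Pik3cb, a catalytic subunit of phosphoinositide 3-kinase, 1.53-fold and Hras 1.64-fold lower.

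Genes of receptor traffic and brakes also went both ways, with 12 of 36 higher and 10 lower (61.1% called, near the 57.6% of all tested genes, median -0.01). Myof, a membrane protein that protects Kdr from degradation, rose from 409 ± 12.2 to 965 ± 22.4 CPM (2.36-fold, n = 3 per group). Dusp6, a phosphatase of ERK that the ERK pathway induces, rose 1.89-fold from 28.2 ± 1.35 to 53.4 ± 2.99 CPM, and Spry4, an inhibitor of receptor kinase signalling, 2.46-fold from 4.95 ± 0.725 to 12.2 ± 0.198 CPM. All 7 Sprouty, SPRED and dual-specificity phosphatase genes of the list rose, with log2 fold changes of 0.14 to 1.30, where 29.0% of all tested genes were called higher. This grouping was made after the values were seen, so nothing is read from its count. Spry2 was called although its groups overlapped. The receptor phosphatase gene Ptprj was 1.39-fold, the recycling GTPase gene Rab11a 1.25-fold and the caveolin gene Cav1 1.21-fold lower. Cdh5, the cadherin that binds Kdr at junctions, rose by 0.21, and Ptprb, the phosphatase of the same junctions, was at -0.05 and not called. Both were chosen after their values were seen.

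In the list of genes around ligand induction and processing, 13 of 28 tested rose and 10 fell (82.1% called against 57.6% of all tested genes, median 0.08). This list mixes inducers with genes that act against them, such as Vhl, Egln1, Egln3 and Zfp36l1, and also holds Vegfd. Its counts are therefore not those of inducers alone. Xbp1, whose product acts in the unfolded protein response and is known to bind the VEGF-A gene, rose from 70.8 ± 3.57 to 142 ± 7.07 CPM (2.01-fold). Atf4, the factor of the integrated stress response that also induces Vegfa, rose from 276 ± 12.9 to 456 ± 31.9 CPM (1.65-fold), and Egln3, an oxygen sensor induced by hypoxia, rose 1.45-fold. The nuclear receptor gene Esrra was 1.45-fold lower, Mmp14, a membrane-bound metalloproteinase, 1.26-fold and Stat3 1.25-fold lower. The relation of these genes to the Vegfa and Pgf levels was not tested.

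Genes with profiles nearest to those of 5 members were taken by the same root mean square distance over the 6 samples, among tested genes of at least 5 CPM. Among the nearest to Vegfa were Cntln (0.0239) and Pctp (0.0257 log2 units). Nearest to Pgf were Ccn3 (0.0449), which encodes a matricellular protein and rose from 322 to 584 CPM, the cholesterol synthesis gene Nsdhl (0.0488) and the formin gene Daam1 (0.0495). Nearest to Kdr were Tmem120b (0.0106), the folate transporter gene Slc19a1 (0.0206) and Sh3pxd2a (0.0273). Nearest to Flt1 were Dnhd1 (0.0246), Ap4b1 (0.0292) and Prrg3 (0.0327), and nearest to Esm1 were Bcl6 (0.0243), Dop1a (0.0270) and Cpt1a (0.0337). With 57.6% of tested genes called, many genes lie close to any such profile, and the distances are a description.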

How the data were processed

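RNA-seq of 6 samples was used, 3 saline and 3 AngII, grouped by title. The authors deposited 1 table of expected counts (estimated reads or fragments per gene, 83.0% of values whole), not scaled to library size. Per the submitters' processing notes HISAT2 and mm10 were used. The quantifier, annotation and strand setting are not given in the sources used here. Counts were rounded, and 0 columns were left unmapped. All genes were fitted in edgeR 4.0.16 (R 4.3.3) with TMM scaling, filterByExpr (minimum count 10, total 15) and the quasi-likelihood test, adjusted over 12277 genes, and the fit was tested on simulated data. Standard errors are the log2 fold change over the root of F. Counting errors cover counting only. Replicate pairs differed by more than sampling noise (chi-square per degree of freedom 2.37 to 5.79). Coordinates and exon lengths came from GENCODE M21 and promoter windows from RefSeq, both GRCm38.

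All 10 members were to be named. From each of 6 lists up to 3 genes that rose and 3 that fell (smallest p, groups apart, at least 1 CPM) were named, and the 3 nearest profiles of 5 members. Some genes this rule chose are not reported here. The members and lists were chosen with earlier results of these data known. Alternatives were median-of-ratios (RLE) factors, library totals, no filter, at least 5 CPM in 3 samples, DESeq2 1.42.0, limma-voom (limma 3.58.1), a replicate block, removal of GC content and length trends (available for 96.1% of tested genes), and each sample left out.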

Additional observations from a re-analysis of the deposited data

How the results depend on the processing

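All 9 genes of the set kept their direction and their side of the threshold under all 15 alternatives, 135 of 135 values. The log2 fold change ranged from 0.77 to 0.89 for Pgf, 0.52 to 0.57 for Vegfa, 0.20 to 0.43 for Vegfb, 0.22 to 0.33 for Kdr, 0.30 to 0.42 for Flt1, 0.16 to 0.33 for Flt4, 0.43 to 0.49 for Nrp2, -0.71 to -0.62 for Esm1 and -0.13 to -0.03 for Nrp1. The 51 further genes chosen by rule gave 765 values, of which 761 kept direction and call, and the 4 others were of Slc19a1 (0.21 to 0.26; adjusted p = 0.051 to 0.077 in DESeq2, without saline replicate 3, without AngII replicate 1 and without AngII replicate 2). Removal of the GC content and length trend took the tip cell genes called lower from 8 to 5, also with the replicate block, and both together took the stalk genes called lower from 8 to 5. The causes were not tested. All 56 alternative values of the ratios stayed within 1 SD. The ratios were not recomputed under all 15 alternatives of the gene fits. After correction for GC content and gene length, Vegfa (0.52) and Vegfb (0.43) lay closer together than in the reported fit (0.55 and 0.23). With the longest transcript as length, Esm1 ranked 2 and Pgf 1 in AngII samples, Flt1 ranked 6, Flt4 7 and Vegfa 8 in AngII samples, and Kdr ranked 4 and Vegfb 5 in both groups.

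The replicate block changed no call among the 9 genes, with 7 called higher and 1 lower, and a log2 fold change of 0.28 for Kdr. The labels do not say whether same-numbered samples were paired. Their deviations correlated at 0.02, 0.05 and -0.01, and saline replicate 3 correlated best with AngII replicate 1 (0.07). Such correlations from 3 samples per group cannot decide whether equal numbers mark a pair or a batch. The share of tested genes called ran from 42.9% without the filter to 63.0% with the stricter filter, and was 49.1% in DESeq2. Depth limits Nrp1 most, at 429 to 499 counts per sample, and Vegfd, below 1 CPM on average in both groups.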
